A study of Mus musculus with 2 samples.

Results

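The expression of 10 Kupffer and vessel-wall macrophage genes was compared between aortic macrophages of PDR mice and of SKYD mice. The genes were Clec4f, Vsig4, Cd5l, Marco, Siglec1, Lyve1, Folr2, Cd163, Stab1 and Id3, chosen by symbol, and all 10 were found among the 54532 genes measured by RNA sequencing. All mice were male ApoE-/- mice on a C57BL/6J background, which lack apolipoprotein E and become dyslipidemic, and their labelled age was 6 weeks, the age that the methods also give for the animals used. The PDR group (phlegm-dampness retention) ate a high-fat diet for 4 weeks. In the SKYD group (spleen and kidney Yang deficiency), propylthiouracil, a drug that lowers thyroid hormone, was given by gavage at 10 mg/kg per day for 4 weeks and was followed by a high-fat diet for 2 weeks. Syndrome, drug, time on the diet and age at sampling therefore cannot be told apart. Aortas were digested with trypsin, and cells stained for F4/80 and CD11b were sorted. Cells of 5 mice were mixed in each group, which leaves 1 pooled library per group and no spread between mice. Every value below therefore has no replicate check, and no test between the groups was possible. Normal control mice were not analysed here.

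Kupffer cells are the resident macrophages of the liver sinusoids, where they take bacteria, immune complexes, modified lipoproteins and aged red cells out of the blood. Resident macrophages of the vessel wall lie in the adventitia and along small vessels, bind hyaluronan, and take up folate, haemoglobin and matrix fragments. Both kinds carry many scavenger receptors, and most genes used to recognise them are shared with resident macrophages of the peritoneum, the spleen or the lymph nodes.

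The deposited values were FPKM, fragments scaled to the length of the gene and to a size set for each library. This allows levels to be compared between genes of different length. The values of each library were whole multiples of the value of 1 read, so the reads behind them could be recovered. The PDR library had 23086889 reads on genes and the SKYD library 25427863. The sizes behind the FPKM values were not these, but 2.349e+07 in PDR and 2.499e+07 in SKYD. Folds of FPKM therefore differ slightly from ratios of the shares of reads. A count of 0 allows up to 3 reads, which is 1.3e-05% of all reads in PDR and 1.18e-05% in SKYD. A difference is log2(FPKM + 1) in PDR less the same in SKYD, so that a negative value is a higher level in SKYD. Folds are ratios of FPKM. The intervals in brackets are 95% intervals from exact limits on the reads, and they cover counting error only.

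The labelled cell type was checked first. The F4/80 gene Adgre1 had an FPKM of 87.3 in PDR and 93.3 in SKYD, and the CD11b gene Itgam had 8.84 and 14.4. All 14 core macrophage genes, which include both sort markers, averaged 1 FPKM or more over the libraries, the minimum used here for a gene to be compared. Their summed FPKM was 29190 in PDR and 53789 in SKYD, and the lysozyme gene Lyz2 was the most abundant. Clec4f, the lectin gene by which mouse Kupffer cells are usually recognised, had 37 reads in PDR and 41 in SKYD. A single gene cannot show which cells were present. The name of the group of 10 genes is used here for the genes only, and the cells they came from were not tested. Apoe, the gene deleted in both groups, had 17336 reads in PDR and 3618 in SKYD. Both groups carry the deletion, and a sum over the whole gene cannot show whether the deleted exons were read, so these numbers do not check the genotype.

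Of the 10 genes, 8 had the higher FPKM in the SKYD library and 2, Marco and Siglec1, had it in the PDR library, while relative to the core macrophage median of -0.61 another 4, Cd5l, Id3, Stab1 and Clec4f, were on the PDR side. The complement receptor gene Vsig4 had the largest difference, followed by Lyve1, Cd163 and Folr2. A difference of more than 2-fold on the log2(FPKM + 1) scale was found for these 4 of the 10 genes, all higher in SKYD, beside 6.91% of the 10399 compared genes that were this much higher in SKYD. In PDR it was found for 0 of the 10, beside 7.38% of the compared genes. The minimum mean of 1 FPKM was reached by 7 of the 10 and missed by the other 3, Siglec1, Stab1 and Clec4f. Cd163 reached it only through its SKYD level. The median difference of all 10 genes was -0.53, and that of the 10399 compared genes was -0.0035. The counting interval left out equal levels for 9 of the 10 genes, all but Clec4f, beside 74.5% of the compared genes. In samples of mixed cells, fewer cells of a type and less RNA per cell cannot be told apart.

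**Figure D1:**
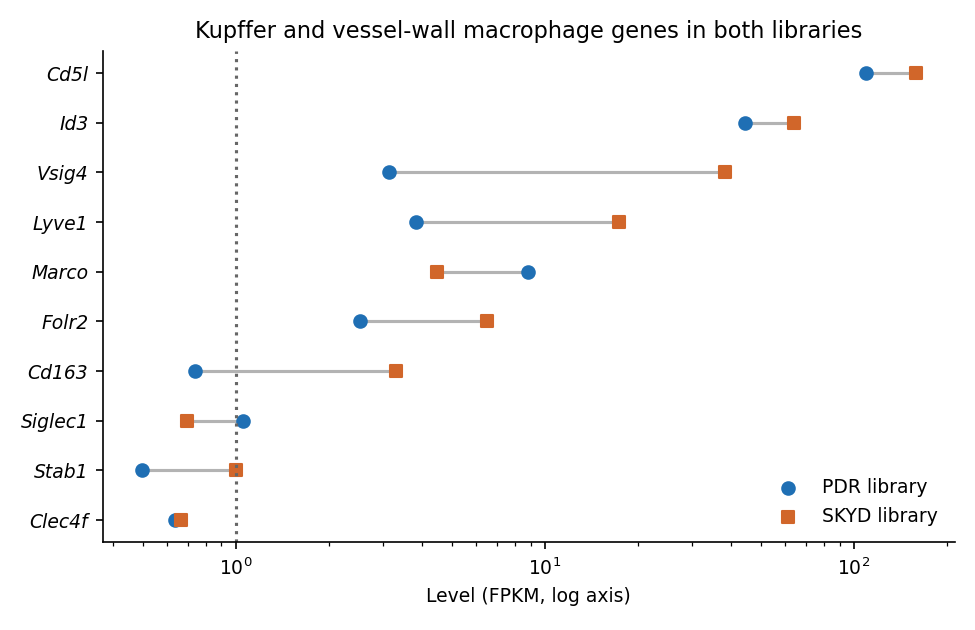
Level of each of the 10 genes in FPKM on a log axis, with circles for the PDR library, squares for the SKYD library, 1 pooled library each, and a dotted line at an FPKM of 1. Vsig4 has the longest line, from 3.13 in PDR to 38.2 in SKYD, while Marco and Siglec1 are the genes whose circle lies to the right of the square.

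The order of the genes by level differed between the libraries below the first 2 places. Cd5l and Id3 led in both and held 87.9% of the summed FPKM of the 10 genes in PDR, which was 175, and 75.5% in SKYD, where the sum was 295. Vsig4 was in place 5 in PDR, where its interval of 2.57 to 3.77 FPKM overlapped those of Lyve1 before it and Folr2 after it. In SKYD it was in place 3, and its interval of 36.2 to 40.2 FPKM overlapped that of no other of the 10 genes. Marco was in place 3 in PDR with 8.80 FPKM (7.96 to 9.71) and in place 6 in SKYD with 4.47 (3.89 to 5.11). At the low end, the intervals of Siglec1, Cd163, Clec4f and Stab1 overlapped from each to the next in PDR. In SKYD, only those of Siglec1 and Clec4f, the last 2, overlapped between neighbours.

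Vsig4 encodes the complement receptor of the immunoglobulin superfamily, with which resident macrophages catch particles coated with complement C3 fragments. The gene (ENSMUSG00000044206) lies on the reverse strand at chrX:96247203-96293438 of GRCm38 and has 7 merged exons. Its FPKM was 3.13 from 109 reads in PDR and 38.2 from 1417 reads in SKYD. This was 12.2-fold higher in SKYD (10.05 to 15.0) and a difference of -3.25 (-3.47 to -3.03). The level of Vsig4 was 3.58% of that of Adgre1 in PDR and 40.9% in SKYD. Counted down from the highest FPKM of all genes, Vsig4 stood at rank 6932 in PDR and 1724 in SKYD.

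Cd5l encodes a secreted protein of the scavenger receptor cysteine-rich family that circulates bound to IgM and that lipid-sensing LXR receptors induce in tissue macrophages. It lies on the forward strand at chr3:87357881-87371073 (ENSMUSG00000015854) with 6 merged exons. Its FPKM was 110 from 5247 reads in PDR and 159 from 8078 reads in SKYD. The gene was 1.45-fold higher in SKYD (1.40 to 1.50), a difference of -0.53 that became 0.08 relative to the core macrophage median. Cd5l was the most abundant of the 10 genes in both libraries, and its level exceeded that of Adgre1, at 126% of it in PDR and 170% in SKYD.

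Marco encodes a class A scavenger receptor that binds bacteria and modified lipoproteins. It lies on the reverse strand at chr1:120474538-120505024 (ENSMUSG00000026390) and has 17 merged exons. Its FPKM was 8.80 from 398 reads in PDR and 4.47 from 215 reads in SKYD, which was 1.97-fold higher in PDR (1.66 to 2.34). The difference of 0.84 was under 2-fold, while its interval of 0.64 to 1.05 reached past it. Relative to the core macrophage median it was 1.45 and more than 2-fold. Relative to Adgre1, Marco had 10.1% of its level in PDR and 4.79% in SKYD. Vsig4 and Marco, both receptors for bacteria and other particles, differed in opposite directions under each scale tried.

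The sequences before the start sites of Vsig4, Marco, Cd5l and Cd163 are shown because these genes include the largest difference, the opposite direction, the highest level and a vessel-wall scavenger receptor higher in SKYD. They are the 250 bases before each start in RefSeq on build GRCm38.p6, in which 8 of the 10 genes were matched, with 9 starts. Lyve1 and Siglec1 were not matched. Windows were searched on both strands for GAGGAA, the core of a PU.1-type motif, for TGCTGA, a half-site of MAF proteins, and for the E-box CANNTG, to which partners of Id proteins bind. Of 32851 promoter windows of that length, 23.3% held GAGGAA, 16.1% TGCTGA and 66.2% CANNTG. Capitals mark GAGGAA and TGCTGA or their reverse complements, and E-boxes are not marked. The Vsig4 window is chrX:96293439-96293688 on the reverse strand, the Marco window chr1:120505025-120505274 on the reverse strand, the Cd5l window chr3:87357631-87357880 on the forward strand and the Cd163 window chr6:124304401-124304650 on the forward strand.
Vsig4: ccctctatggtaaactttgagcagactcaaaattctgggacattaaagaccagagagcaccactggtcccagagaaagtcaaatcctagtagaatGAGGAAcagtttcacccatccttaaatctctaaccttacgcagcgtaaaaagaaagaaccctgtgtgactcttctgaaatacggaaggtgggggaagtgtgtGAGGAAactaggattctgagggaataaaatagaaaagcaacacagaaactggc
Marco: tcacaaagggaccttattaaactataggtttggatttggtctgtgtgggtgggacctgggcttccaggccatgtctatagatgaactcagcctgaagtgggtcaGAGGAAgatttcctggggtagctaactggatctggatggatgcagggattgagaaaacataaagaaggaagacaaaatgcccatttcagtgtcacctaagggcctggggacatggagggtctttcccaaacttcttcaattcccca
Cd5l: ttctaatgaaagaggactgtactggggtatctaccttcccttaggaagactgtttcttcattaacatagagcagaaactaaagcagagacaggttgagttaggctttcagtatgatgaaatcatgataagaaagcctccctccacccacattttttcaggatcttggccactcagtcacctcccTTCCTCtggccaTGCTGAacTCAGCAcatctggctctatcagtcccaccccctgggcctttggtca
Cd163: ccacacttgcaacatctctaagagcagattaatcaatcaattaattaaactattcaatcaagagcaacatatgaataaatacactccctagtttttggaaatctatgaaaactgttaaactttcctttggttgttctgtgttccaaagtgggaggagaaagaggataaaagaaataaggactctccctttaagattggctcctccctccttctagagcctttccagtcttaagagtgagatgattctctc
The Vsig4 window held GAGGAA at 155 and at 53 bases before the start, and the Marco window held it at 146 bases. In the Cd5l window, GAGGAA stood on the other strand at 66 bases, and TGCTGA stood at 54 bases and, on the other strand, at 46 bases. The Cd163 window held neither. Of E-boxes, the Cd163 window had 2, the Cd5l window 1 and the Vsig4 and Marco windows 0. A match of letters is a description of the sequence and not a bound site.

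Clec4f and Siglec1, a lectin of Kupffer cells and the sialic acid receptor sialoadhesin (CD169) of sinus macrophages, were low in both libraries. Clec4f (ENSMUSG00000014542, chr6:83644542-83656187, reverse strand) had an FPKM of 0.638 from 37 reads in PDR and 0.664 from 41 reads in SKYD. The fold of 1.04 had an interval from 0.651 to 1.67, so a difference in Clec4f was not detectable at this depth. Siglec1 (ENSMUSG00000027322, chr2:131069220-131086765, reverse strand) had an FPKM of 1.055 from 177 reads in PDR and 0.695 from 124 reads in SKYD. It was 1.52-fold higher in PDR (1.20 to 1.93), and its difference of 0.28 was understated by the pseudocount of 1, since at 0.01 it was 0.60. Its mean FPKM was 0.875.

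**Figure D2:**
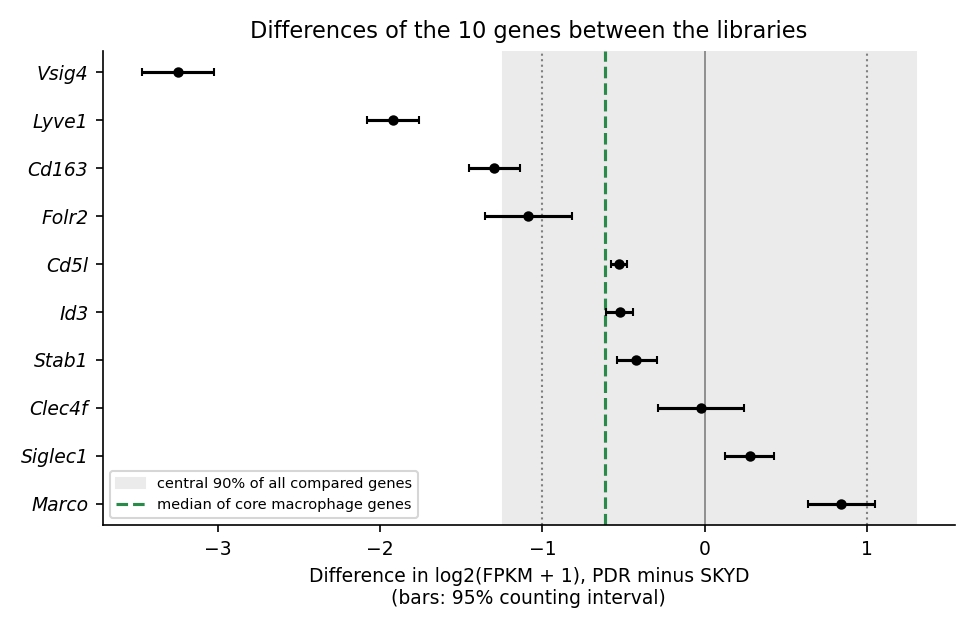
Difference of each of the 10 genes in log2(FPKM + 1), PDR minus SKYD, with bars for the 95% counting interval and 1 pooled library per group. Grey marks the range from -1.24 to 1.30 that holds the central 90% of the compared genes, dotted lines mark 2-fold, and the dashed green line marks the core macrophage median of -0.61. Vsig4, Lyve1 and Cd163 lie left of the grey range, while Cd5l, Id3, Stab1, Clec4f, Siglec1 and Marco lie right of the green line.

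Lyve1, Folr2 and Cd163, which recognise macrophages along vessels, were all more than 2-fold higher in SKYD. Lyve1 encodes a receptor for the matrix sugar hyaluronan and is also a gene of lymphatic endothelium. The gene (ENSMUSG00000030787, chr7:110850607-110863239, reverse strand) had an FPKM of 3.84 from 263 reads in PDR and 17.3 from 1265 reads in SKYD. It was 4.52-fold higher in SKYD (3.95 to 5.18), with a difference of -1.92 (-2.08 to -1.76). Its level was 4.39% of that of Adgre1 in PDR and 18.6% in SKYD. Other genes of lymphatic vessels went both ways at low counts, Prox1, Pdpn and Flt4 with 0, 3 and 1 reads in PDR and 13, 19 and 7 in SKYD, the 2 rows of Ccl21a with 2 and 0 against 6 and 1, and Reln with 69 against 16. These genes were picked with their values in view, and the part of lymphatic cells in the level of Lyve1 was not tested.

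Cd163 encodes the receptor by which macrophages take up haemoglobin bound to haptoglobin. It (ENSMUSG00000008845, chr6:124304656-124330527, forward strand) had an FPKM of 0.741 from 95 reads in PDR and 3.29 from 449 reads in SKYD. The ratio of 4.44 (3.55 to 5.60) was close to that of Lyve1, but the difference of -1.30 (-1.46 to -1.14) was smaller, since a pseudocount of 1 weighs more on low levels. Relative to the core macrophage median it was -0.69 and under 2-fold.

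Folr2 encodes folate receptor beta, a folate-binding protein anchored to the surface of resident macrophages. Its FPKM (ENSMUSG00000032725, chr7:101839988-101857194, reverse strand) was 2.53 from 92 reads in PDR and 6.52 from 252 reads in SKYD. The gene was 2.57-fold higher in SKYD (2.02 to 3.30), a difference of -1.09 (-1.36 to -0.82) whose interval includes less than 2-fold, and it was -0.48 relative to the core macrophage median. The value of Folr2 is uncertain in another respect. The antisense gene Gm10602 covers 975 of its 1546 exonic bases, or 63.1%. Of the Folr2 windows of 64 bases, 49.5% also occur on either strand in transcripts of another gene, a count that includes the overlap with Gm10602. Gm10602 itself had 0 reads in PDR and 14 in SKYD, and without stated use of strand in the counting, reads of the 2 genes cannot be told apart.

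Stab1 encodes stabilin-1, a large scavenger receptor of macrophages and sinusoidal endothelium that clears modified lipoproteins and matrix proteins. The gene (ENSMUSG00000042286, chr14:31139013-31168641, reverse strand) is the longest of the 10, with 10288 exonic bases in 58 merged exons, so its 120 reads in PDR and 258 in SKYD gave FPKM values of 0.497 and 1.003. It was 2.02-fold higher in SKYD (1.62 to 2.53), while the difference was -0.42 with a pseudocount of 1 and -1.0 with one of 0.01. Relative to the core macrophage median the difference was 0.19. The gene of the related receptor stabilin-2, Stab2, had 10 reads in PDR and 45 in SKYD.

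Id3 encodes a helix-loop-helix protein that lacks a DNA-binding part and holds E-box factors off DNA, and it is needed for the development of Kupffer cells. The gene (ENSMUSG00000007872, chr4:136143497-136145755, forward strand) had an FPKM of 44.3 from 1863 reads in PDR and 64.1 from 2868 reads in SKYD. It was 1.45-fold higher in SKYD (1.36 to 1.53), a difference of -0.52 that became 0.09 relative to the core macrophage median. Id3 and Cd5l, an intracellular regulator and a secreted protein, had the same fold.

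The core macrophage genes were used as another scale, and whether they follow the macrophage share of the RNA was not tested. Their differences ran from -1.59 for C1qc, a chain of complement C1q, to 0.54 for the Fc receptor gene Fcgr1, and 3 of 14, C1qa, C1qb and C1qc, were more than 2-fold higher in SKYD. Of the 10 Kupffer and vessel-wall genes, 2 lay below this range, Vsig4 and Lyve1, and 1 lay above it, Marco. Relative to the core median, Vsig4 was at -2.64, Lyve1 at -1.31 and Marco at 1.45. On this scale 2 of the 10 were more than 2-fold higher in SKYD, beside 3.26% of the compared genes, and 1 of the 10 was more than 2-fold higher in PDR, beside 22.8% of them. The count on the PDR side is no larger than the share among all compared genes, so nothing about the 10 genes is read from it. Centring on this list moved the median of all compared genes by 0.61, and the share of calls that were higher in PDR went from 51.6% to 87.5%. The values of Itgam and Ctsd in this list are uncertain, because 65.7% and 31.8% of their windows of 64 bases are shared with another gene.

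**Figure D3:**
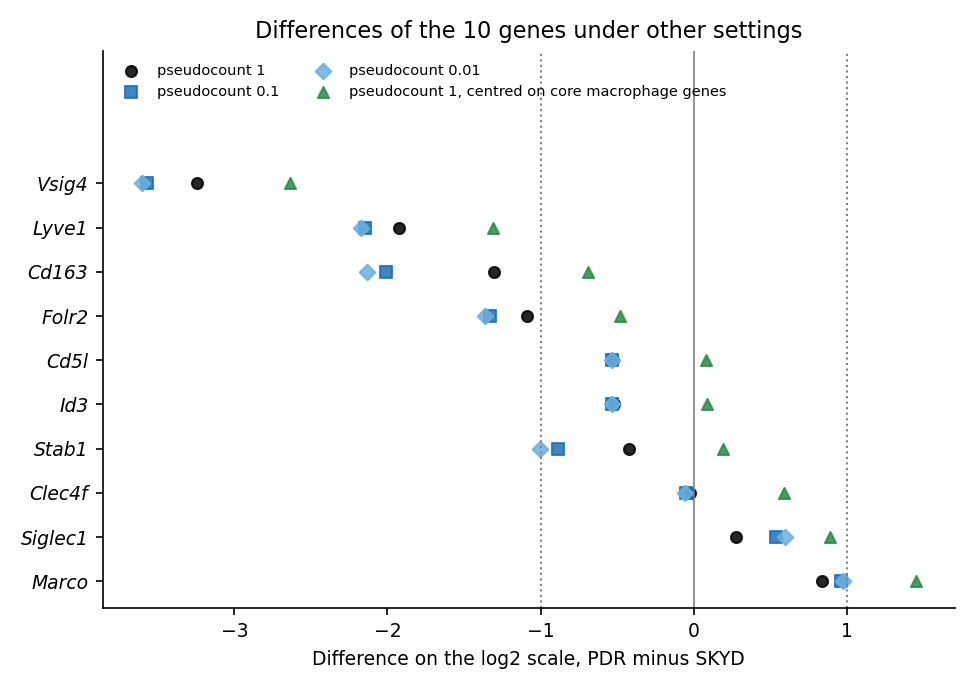
Difference of each of the 10 genes on the log2 scale, PDR minus SKYD, with pseudocounts of 1, 0.1 and 0.01 and, as triangles, with a pseudocount of 1 after centring on the core macrophage median. Vsig4 and Lyve1 stay left of the 2-fold line at -1 in all 4 settings, Cd163 and Folr2 in all but the centred one, and Cd5l, Id3, Stab1 and Clec4f cross 0 only when centred.

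Further genes of Kupffer cells went both ways. Of 16 genes, 14 were compared, and 6 of these were more than 2-fold higher in SKYD and 0 in PDR. These counts were 3 and 4 relative to the core macrophage median, and 7 and 1 with a pseudocount of 0.1. The 1 was C6, for a complement component, with an FPKM of 1.88 in PDR and 0.596 in SKYD, and it reached the minimum mean only through PDR. Beside such counts, here and for every other list, stand the shares of all compared genes. These were 6.91% in SKYD and 7.38% in PDR, or 3.26% and 22.8% relative to the core macrophage median. With a pseudocount of 0.1, 19.9% of all compared genes were past 2-fold either way, against 14.3% in the main setting. The 4 of 14 in PDR on the centred scale is near its share, so nothing is read from it. The median of the compared Kupffer genes was -0.50, or -0.24 over all 16, and it was 0.11 relative to the core macrophage median. Apoc1, an apolipoprotein gene and the most abundant of the list, had an FPKM of 226 in PDR and 141 in SKYD. Pltp, for the phospholipid transfer protein, had 70.9 and 213, and Fcna, for the lectin ficolin A, had 55.0 and 195. The adhesion molecule gene Vcam1 had 2.46 and 13.5, a difference of -2.07. Cd207, the gene of the lectin langerin, had 0 reads in PDR, which allows up to 3, and 97 in SKYD, and it reached the minimum mean only through SKYD. Of 2 other receptor genes of Kupffer cells, Timd4 had an FPKM of 25.4 in PDR and 25.3 in SKYD and Clec1b had 2.60 and 2.53. C6, Timd4 and Clec1b were picked after their values were seen.

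Of 18 further genes of vessel-wall macrophages, 16 were compared, and 8 of these were more than 2-fold higher in SKYD and 0 in PDR, or 3 and 0 relative to the core macrophage median. Their median was -1.0, and -0.39 relative to the core macrophage median. Pf4, for a chemokine of platelets that resident macrophages also express, had an FPKM of 218 in PDR and 1446 in SKYD, a difference of -2.72. Cd209d, a lectin gene, had 3.47 and 57.8, a difference of -3.72 that exceeded that of Vsig4. Ninj1, for a membrane protein that breaks the surface of dying cells, had 178 and 455, and Selenop, for a selenium carrier, had 101 and 202. The mannose receptor gene Mrc1, added after its value was seen because it is commonly used beside Lyve1 and Folr2, had 1.60 and 3.09.

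The signals and transcription factors that form resident macrophages include Notch ligands, BMP and TGF-beta proteins, CSF1 and the Id family to which Id3 belongs. Of 24 such genes, 12 were compared, and 3 of these were more than 2-fold higher in SKYD and 0 in PDR, or 0 and 0 relative to the core macrophage median. Their median was -0.74, or -0.15 over all 24, and -0.13 relative to the core macrophage median. Id2 was the most abundant, with an FPKM of 229 in PDR and 428 in SKYD. Id1 had 15.3 and 37.6, so that Id1, Id2 and Id3 all had the higher level in SKYD, by -1.25, -0.90 and -0.52. Relative to the core median Id3 was on the PDR side, at 0.09. Spi1, the gene of PU.1, had 108 and 179, and the CSF1 receptor gene Csf1r had 57.7 and 44.9. Tgfb1, for a cytokine that maintains resident macrophages, had 0.608 and 3.02, a difference of -1.32, and it also reached the minimum mean only through SKYD. The ligand genes Dll4, Bmp10 and Gdf2 had 0 reads in both libraries, which allows up to 3 reads in each.

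Of 14 other genes of scavenger and clearance receptors, 4 of which are also in another list, 12 were compared, with 1 more than 2-fold higher in SKYD and 0 in PDR, or 0 and 1 relative to the core macrophage median. The gene higher in SKYD was Cd93, a receptor of myeloid and endothelial cells, at 1.02 FPKM in PDR and 3.47 in SKYD. The gene past 2-fold in PDR relative to the core macrophage median was Fcgr1, at 1.15. The median of the 12 compared genes was -0.25, and 0.36 relative to the core macrophage median. The most abundant were Cd68, for a lysosomal protein, with 259 and 388, the fatty acid and lipoprotein receptor gene Cd36 with 80.3 and 86.7, and Fcgr1 with 51.9 and 35.3.

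**Figure D4:**
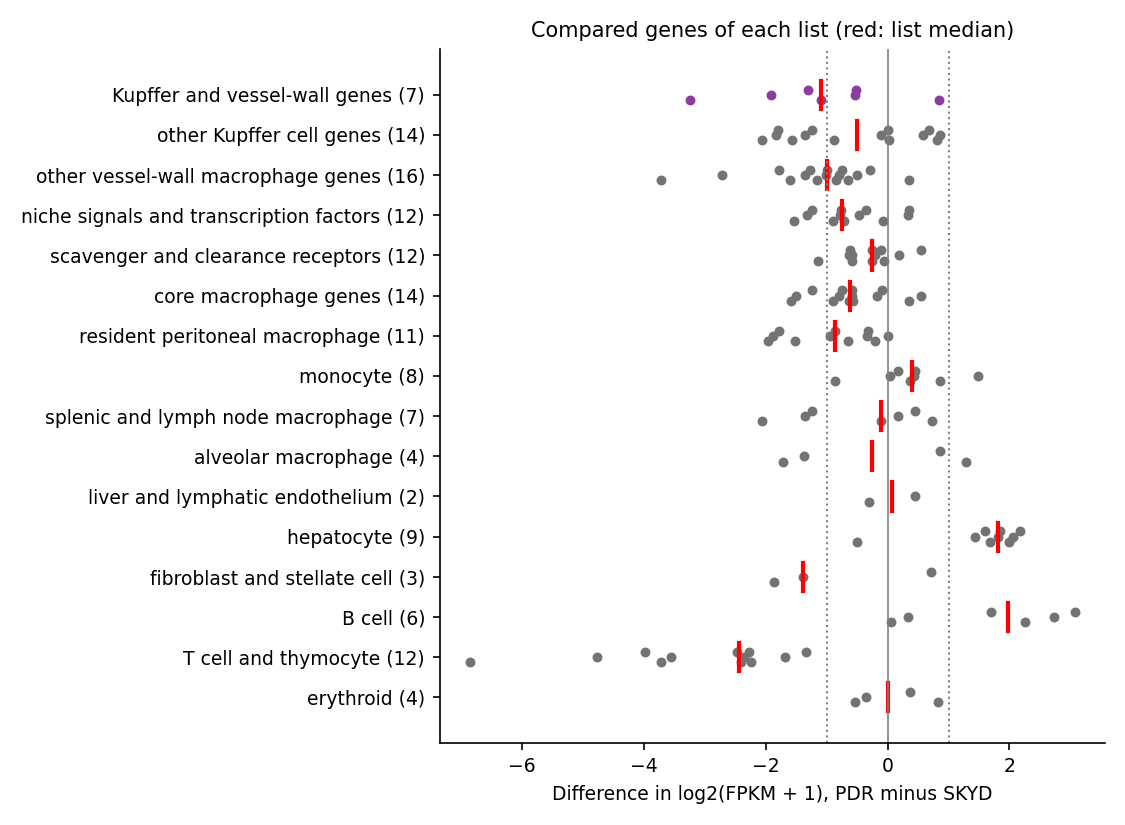
Differences in log2(FPKM + 1), PDR minus SKYD, of the compared genes (mean of 1 FPKM or more) in the 10 Kupffer and vessel-wall genes (purple) and in 15 other lists, with the number of such genes in brackets, the list median in red and dotted lines at 2-fold. The purple median covers 7 genes and is -1.09, against -0.53 over all 10, and the lists lie on both sides of 0, from T cell genes at -2.44 to B cell genes at 1.97.

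Genes that mark resident macrophages of other sites, some of which express Vsig4, Cd5l and Marco, were present beside the 10 genes. All 11 genes of resident peritoneal macrophages, 1 of which is also in the further Kupffer list, were compared. Of these, 4 were more than 2-fold higher in SKYD (3 relative to the core macrophage median) and 0 in PDR, with a median of -0.87 (-0.25 on that scale) and a summed FPKM of 743 in PDR and 1645 in SKYD. The lipoxygenase gene Alox15 was the most abundant, with 236 and 683, and Icam2 had 148 and 285, Serpinb2 152 and 240, Prg4 23.5 and 94.6, and Selp 5.75 and 24.0. Gata6, the transcription factor that defines these cells, had 1.07 and 1.60. Of 9 monocyte genes, 8 were compared, 1 was more than 2-fold higher in PDR, Ly6c2 with 1436 and 512, and 0 in SKYD, against 4 and 0 relative to the core macrophage median. Their median was 0.39 (1.0 on that scale), their sum 5787 in PDR and 3439 in SKYD, and the most abundant gene was Chil3, followed by Plac8 by mean FPKM. The part of these cells in the differences of the 10 genes was not tested.

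Genes of cells other than macrophages also differed between the libraries. Of 10 hepatocyte genes, 9 were compared and 8 had more than 2-fold higher levels in PDR. The list had a median of 1.81 and a summed FPKM of 1798 in PDR and 587 in SKYD. Apoa2, for an apolipoprotein, was the most abundant, and Alb had 258 and 72.8. Of 15 gene rows for liver and lymphatic endothelium, with Ccl21a present in 2 of them, 2 were compared and 0 were past 2-fold either way, or 1 in PDR relative to the core macrophage median. Of the 15 rows 10 had the higher FPKM in SKYD and 4 in PDR. Their sum was 6.02 in PDR and 6.89 in SKYD, the most abundant genes were Pecam1 with 3.89 and 2.57, Dnase1l3 with 0.901 and 1.36 and Clec4g with 0.294 and 1.32, where Dnase1l3 reached the minimum mean only through SKYD, and Oit3 and 1 row of Ccl21a had at most 3 reads in both libraries. Of 10 fibroblast and stellate cell genes, 3 were compared and 2, Dcn and Lum, were more than 2-fold higher in SKYD, Lum having reached the minimum mean only through SKYD. The third, Des, for the muscle filament desmin, went the other way, with 1.60 in PDR and 0.586 in SKYD, 2.73-fold higher in PDR (1.98 to 3.80), and was past 2-fold with a pseudocount of 0.1. It reached the minimum mean only through PDR. The counts were 1 in SKYD and 1 in PDR relative to the core macrophage median. Their sum was 12.6 in PDR and 44.6 in SKYD, with Dcn the most abundant, and Lrat, a gene of stellate cells, had 0 and 4 reads.

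Lymphocytes, red cells and hepatocytes do not carry F4/80, on which the cells were sorted, yet their genes were read in both libraries. Of 12 genes of T cells and thymocytes, all 12 were more than 2-fold higher in SKYD, or 11 relative to the core macrophage median, with a median of -2.44, a summed FPKM of 179 in PDR and 1500 in SKYD, and Cd8b1 as the most abundant. Of these 12 genes, 5 (Dntt, Rag1, Rag2, Ptcra and Bcl11b) reached the minimum mean only through SKYD, so that their direction was set by it. Rag2 had 0 reads in PDR and 2262 in SKYD. Of 8 B cell genes, 6 were compared, and 4 were past 2-fold on the PDR side and 0 on the SKYD side, with a median of 1.97, or 1.08 over all 8. Their sum was 7835 in PDR and 5700 in SKYD, and Ighm was the most abundant. Of 6 erythroid genes, 4 were compared and 0 were past 2-fold, or 1 in PDR relative to the core macrophage median, with a median of 0.01 (0.62 on that scale), a sum of 16972 in PDR and 23393 in SKYD, and Hba-a1 as the most abundant. Klf1, which defines the erythroid lineage, had 0 and 7 reads. The part of these cells in the differences of the 10 genes was not tested. The values of Hba-a1, Hbb-bs, Trf, Serpina1a, Rarb, Cd209f and Chil3, and the sums that contain them, are uncertain, since 69.9%, 52.3%, 57.5%, 52.9%, 33.0%, 25.7% and 18.7% of their windows of 64 bases are shared with another gene, as are 65.9% in 1 row of Ccl21a.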

How the data were processed

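Each group gave 1 pooled library of RNA from sorted aortic macrophages. The authors filtered reads, aligned them with TopHat2 2.0.9 and Bowtie2 2.0.6, counted them per gene with HTSeq 0.6.1 and deposited FPKM per gene. The submitters' processing notes name mm9, but 98.3% of the 54495 genes shared with a GENCODE annotation of GRCm38 have the same start and end, so GRCm38 is used here. Use of strand in counting is not given in the sources used here.

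Genes were taken by symbol. The value of 1 read was found in each column from its smallest steps, and FPKM times gene length over it was whole within 0.001 read for 100% of the 17738 genes above 0 in PDR and the 20499 in SKYD. Differences are log2(FPKM + 1), PDR minus SKYD. Genes were compared where the mean of both FPKM values was 1 or more, and called where the difference was past 2-fold. Intervals of folds use Clopper-Pearson limits on the split of a gene's reads, and intervals of levels use exact Poisson limits, both at 95%. They cover counting error only. With 1 library per group no p-value was computed, and no paired analysis was possible.

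The 10 genes and the 15 other lists were chosen with earlier results of these data known. The rule named all 10 genes, the sort markers and, in each list, the 3 genes with the highest mean FPKM and the 2 largest differences past 2-fold each way, and the remaining names in the text were picked with their values in view. The values of 1 gene that the rule names are not reported here. Alternatives were pseudocounts of 0.1 and 0.01, no filter, a minimum mean of 5 FPKM, TPM in place of FPKM, centring on all compared genes or on the core macrophage genes, protein-coding genes only, and a 4-fold threshold. Shared sequence was found as 64-base windows present on either strand in transcripts of another gene, so that overlap with an antisense gene counts as shared. Promoter sequences came from RefSeq on GRCm38.p6. The steps were tested on simulated data for PDR against SKYD, in which reads were recovered for all 54532 genes. There, 200 of 200 genes changed 4-fold were called, with 12 of 10136 unchanged genes called. The changed genes were drawn only from genes with a mean of 5 FPKM or more, and the simulated spread was counting error only. How often changes are called at lower levels, as for Cd163 and Folr2, or with spread between mice, was therefore not tested. Scripts ran in Python 3.11.15 with pandas 2.3.3, numpy 2.4.6 and scipy 1.17.1, and plots used matplotlib 3.10.9.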

Additional observations from a re-analysis of the deposited data

How the results depend on the processing

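No paired analysis was possible because each group has 1 library. Filters cannot move the difference of a single gene. Of the 5 alternatives that can, all 5 kept the sign for Vsig4 (-3.61 to -2.64), Lyve1 (-2.17 to -1.31), Cd163 (-2.14 to -0.69), Folr2 (-1.36 to -0.48), Marco (0.85 to 1.45) and Siglec1 (0.28 to 0.89), and 4 kept it for Cd5l, Id3, Stab1 and Clec4f, which turned positive when centred on the core macrophage genes. The number of the 10 genes more than 2-fold higher in SKYD, 4 in the main setting, was 2 with a minimum mean of 5 FPKM, where fewer genes are compared, 2 when centred on the core macrophage genes and 1 at a 4-fold threshold. The number more than 2-fold higher in PDR went from 0 to 1 when centred on the core macrophage genes. The median of the 10 genes went from -0.53 to -0.71 with a pseudocount of 0.1, to -0.77 with 0.01 and to 0.086 when centred on the core macrophage genes. The percentage of all compared genes past 2-fold, 14.3 in the main setting, was 3.13 without a filter, 26.1 when centred on the core macrophage genes and 3.94 at 4-fold. Which scale is right for these mixed libraries was not tested. Among the other lists, medians kept their sign in all alternatives for vessel-wall, niche, peritoneal, monocyte, hepatocyte, fibroblast, B cell, T cell and erythroid genes. Depth limits Clec4f, with 37 and 41 reads, more than the other genes, and no alternative can supply the missing spread between mice.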

Other observations

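Single genes that act, like the haemoglobin receptor gene Cd163, in the handling of red cell iron had the following levels. Hmox1, for the enzyme that opens the haem ring, had an FPKM of 30.4 from 1251 reads in PDR and 79.5 from 3480 reads in SKYD, a difference of -1.36. Spic, for the transcription factor of iron-recycling macrophages, had 4.39 and 11.8, a difference of -1.24, and Slc40a1, for the iron exporter ferroportin, had 0.719 and 2.17, which is 3.02-fold higher in SKYD (2.52 to 3.65) and a difference of -0.88, and it reached the minimum mean only through SKYD. Spic and Slc40a1 were picked after their values were seen. Relative to the core macrophage median, Hmox1 was at -0.75, Spic at -0.63 and Slc40a1 at -0.27, all under 2-fold. The further Kupffer list that holds these genes went both ways, with 10 of 16 genes higher in SKYD and 6 in PDR. Of 7 genes of splenic and lymph node macrophages, 4 of which are also in the further Kupffer list, all 7 were compared, and 3 were more than 2-fold higher in SKYD and 0 in PDR, or 1 and 2 relative to the core macrophage median. Beside these counts, and those of the alveolar list below, stand 6.91% of all compared genes in SKYD and 7.38% in PDR. Relative to the core macrophage median these shares were 3.26% and 22.8%. The median of the 7 genes was -0.11, and 0.50 relative to the core macrophage median. Their summed FPKM was 125 in PDR and 168 in SKYD, with Hmox1 as the most abundant gene. Treml4, a receptor gene of splenic macrophages, went the other way, with 48.7 and 29.2.

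Of 8 genes of alveolar macrophages, 4 were compared, with 2 more than 2-fold higher in SKYD and 1 in PDR, or 1 and 2 relative to the core macrophage median. Of the 2, Atp6v0d2 had 0 reads in PDR and reached the minimum mean only through SKYD. Their median was -0.26, which turned to 0.86 with a minimum mean of 5 FPKM and to 0.35 relative to the core macrophage median. Chil3, which monocytes share, was the most abundant, and the sum was 2969 in PDR and 2184 in SKYD. Of the genes that define these cells, Car4 had 0 and 4 reads, Krt79 had 0 in both libraries and Siglecf had 18 and 14. The values of Ear2, with an FPKM of 295 in PDR and 769 in SKYD, are uncertain, since 29.9% of its windows of 64 bases are shared with another gene.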
